A study of Mus musculus with 20 samples.

Results

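The variable (V) genes of the T cell receptor are the 163 features whose symbols start with Trbv (35 genes of the beta chain) or Trav (128 genes of the alpha chain), out of 31053 genes in the tables. Their unique molecular identifiers (UMIs, each a captured transcript) were read in T cells, defined as barcodes with at least 1500 UMIs, at most 10% mitochondrial UMIs, at least 2 UMIs of Cd3d, Cd3e and Cd3g and at most 1 UMI of Cd79a and Cd79b. Of 97319 barcodes that passed the first pair of limits, 34856 were T cells. Of these, 25691 held Cd8a or Cd8b1 and no Cd4 UMIs (Cd8 cells), 2858 held Cd4 and no Cd8a or Cd8b1 UMIs (Cd4 cells), 377 held both and 5930 held neither.

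A T cell assembles its beta chain from a V, a D and a J segment and its alpha chain from a V and a J segment, and its descendants inherit both. A clone that expands therefore raises the share of cells with its V genes, although many unrelated clones can use the same V gene, so a V gene share is not the share of a clone. The beta chain is made from a single allele in nearly all T cells, whereas many T cells rearrange the alpha chain on both alleles. In Eµ-TCL1 mice, a model of chronic lymphocytic leukemia (CLL), Cd8 T cells are known to shift towards antigen-experienced cells as leukemia advances.

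The study profiled unselected live cells of mice labelled C57BL/6N, of mixed sex, at early removal criteria by 3′ single-cell RNA sequencing, in 20 libraries from 13 mice. Spleens came from 5 mice with the transgene Eµ-hPRMT5 (human PRMT5, here Eµ-PRMT5), 4 with Eµ-hTCL1 (human TCL1, Eµ-TCL1) and 4 with Eµ-hPRMT5/hTCL1 (both, Eµ-PRMT5/TCL1), and lymph nodes came from 3 of the Eµ-TCL1 and all 4 of the Eµ-PRMT5/TCL1 mice. No treatment is given in the labels, no mouse without a transgene was profiled, and the human transgenes were not measured here. The study's methods put the Eµ-TCL1 mice used for crossing on C57BL/6J. The Eµ enhancer drives the transgenes in B cells, and whether the T cells described here held transgene RNA was not tested. Libraries held 9348094 to 72440894 UMIs, 50 to 4495 Cd8 cells and 6 to 907 Cd4 cells, and 714 of the T cell barcodes occurred in more than 1 library (at most 33 in any pair of libraries).

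Few V genes carried the results, and the ends of these genes are shown because the genes are told apart by sequence alone. The lines give the last 60 bases of the V segment of the 8 genes that led a Cd8 library and of Trbv17, which led Cd4 libraries, 5′ to 3′, with the codon of the conserved cysteine before the junction in capitals. They come from the GENCODE vM21 transcripts of GRCm38, the build named for the files, and all lie on chromosome 6, for example Trbv12-1 at chr6:41114008-41114067, Trbv13-2 at chr6:41121773-41121832, Trbv16 at chr6:41152171-41152230 and Trbv17 at chr6:41163497-41163556 on the plus strand and Trbv31 at chr6:41557691-41557750 on the minus strand.
Trbv12-1: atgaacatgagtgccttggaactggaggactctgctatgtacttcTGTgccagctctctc
Trbv12-2: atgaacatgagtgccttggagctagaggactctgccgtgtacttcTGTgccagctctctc
Trbv13-1: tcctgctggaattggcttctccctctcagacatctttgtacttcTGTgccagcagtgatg
Trbv13-2: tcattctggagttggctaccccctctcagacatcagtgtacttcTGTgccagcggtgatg
Trbv1: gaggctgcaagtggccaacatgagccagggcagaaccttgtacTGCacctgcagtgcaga
Trbv16: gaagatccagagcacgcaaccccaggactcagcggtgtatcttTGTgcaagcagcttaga
Trbv19: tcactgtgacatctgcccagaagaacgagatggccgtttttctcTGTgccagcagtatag
Trbv31: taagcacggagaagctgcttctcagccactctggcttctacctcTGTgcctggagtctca
Trbv17: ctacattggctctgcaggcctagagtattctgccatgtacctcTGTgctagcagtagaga

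Trbv12-1 and Trbv12-2 were identical at 87.4% of aligned bases, Trbv13-2 and Trbv13-3 at 90.6% and Trbv13-1 and Trbv13-2 at 81.0%. The median over the 253 pairs of 23 expressed Trbv genes was 50.5%, and no other pair reached 81.0%. Reads from stretches that such similar genes share cannot be told apart. Shares of Trbv12 and Trbv13 genes are therefore less certain than those of Trbv16, Trbv17, Trbv19 or Trbv31.

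In Cd8 cells, 27 of the 35 Trbv genes had at least 1 UMI and 23 had at least 100, and 106 of the 128 Trav genes had UMIs. The Trbv genes summed to 121710 UMIs, led by Trbv12-1 with 17742, and the Trav genes to 34473, led by Trav13-1 with 7109. In Cd4 cells, 25 Trbv and 95 Trav genes had UMIs, with 43194 UMIs in Trbv genes, 30066 of them from Trbv17, and 11200 in Trav genes, 5531 of them from Trav4-3. Of the 33 members annotated as pseudogenes, 5 Trbv and 7 Trav genes had UMIs in Cd8 cells and 3 and 4 in Cd4 cells.

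V genes marked T cells in these libraries. A Trbv UMI was found in 67.8% (Eµ-PRMT5/TCL1 lymph node 4) to 96.7% (Eµ-PRMT5/TCL1 spleen 1) of Cd8 cells and in 0 to 4.85% of B cells, the highest share being in Eµ-PRMT5 spleen 5. Median UMIs per cell ran from 2834 to 6907 in Cd8 cells and from 4057 to 15904.5 in B cells. With every cell thinned to 1500 UMIs the shares were 48.9% to 86% in Cd8 cells and 0 to 1.41% in B cells, so T cells stood far above these B cells. The B cells were set by UMIs of Cd79a and Cd79b and the absence of Cd3d, Cd3e and Cd3g UMIs. This leaves out barcodes with T cell RNA, so their shares can lie under the background that free RNA leaves in droplets. Cd4 cells of Eµ-TCL1 spleen 1 and lymph node 1 held 27.5 and 22.6 Trbv UMIs per cell, whereas the Cd4 cells of the other libraries held 2.5 to 11.1.

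Each cell was assigned to the Trbv gene with most UMIs, and cells with a tie (0 to 7.75% of cells with Trbv UMIs) were left out. Between 10.1% and 46.4% of cells with Trbv UMIs held more than 1 Trbv gene. The gene found most often beside another was Trbv13-2, at a median over libraries of 8.99% of cells led by another gene, followed by Trbv12-2 at 5.31% and Trbv19 at 1.46%. Several libraries had an extra gene of their own. In Eµ-PRMT5 spleen 5, Trbv4 was found in 25.5% of Trbv12-1 cells, and in Eµ-PRMT5 spleen 3, Trbv22 was found in 36.2% of Trbv12-1 cells against 0.898% of the others. In Eµ-TCL1 spleen 1, Trbv5 was found in 24.3% of Trbv1 cells against 5.26% of the others. Whether such pairs come from both alleles, from unspliced transcripts or from barcodes with 2 cells was not tested.

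Ordinary usage differed between Cd8 and Cd4 cells. Over the 20 libraries with at least 20 assigned Cd8 cells, the highest median shares were 9.35% for Trbv13-2, 8.66% for Trbv12-2, 7.81% for Trbv16, 5.41% for Trbv19 and 5.21% for Trbv3. Over the 14 libraries with at least 20 assigned Cd4 cells they were 10.4% for Trbv13-2, 8.09% for Trbv3, 7.53% for Trbv13-1, 6.85% for Trbv5 and 6.02% for Trbv2. Trbv12-2 thus ranked high in Cd8 cells and had a median of 0.167% in Cd4 cells, where its highest share was 4.35%. These medians are a description, since the same mice give several of the libraries.

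**Figure D1:**
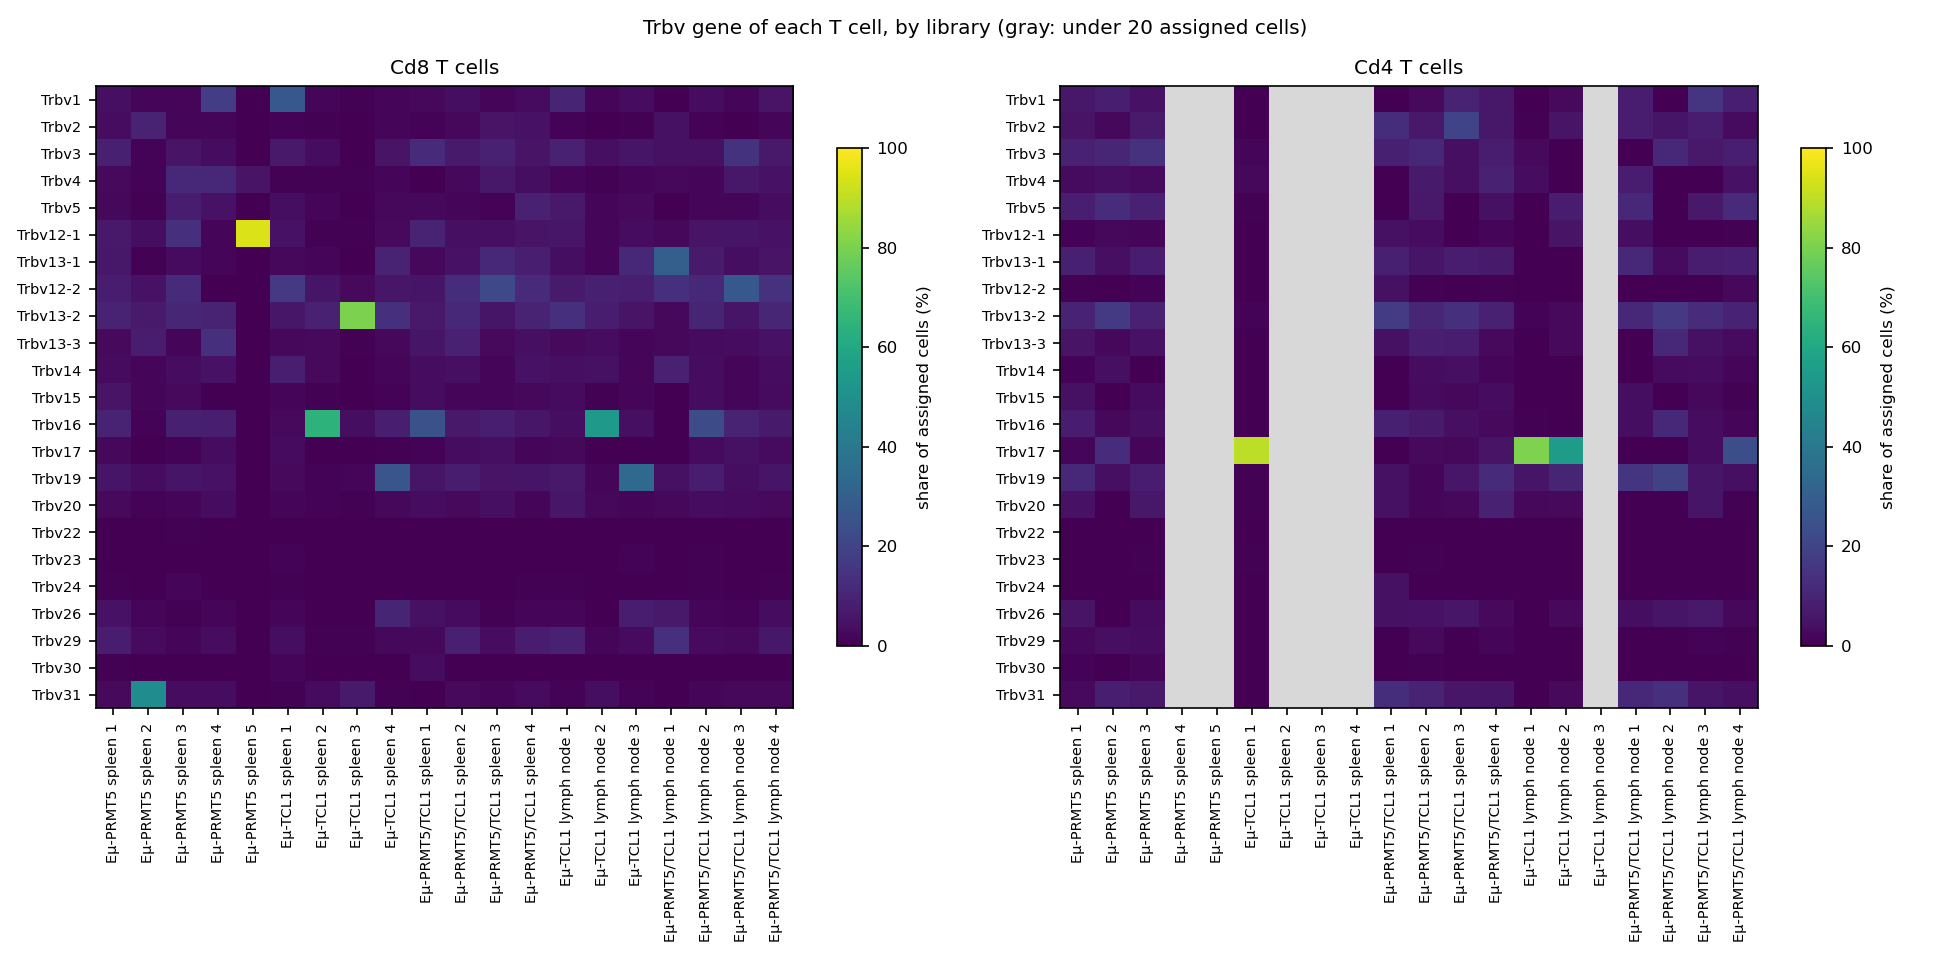
Share of assigned cells (percent, color) for the 23 Trbv genes with at least 100 UMIs in Cd8 cells, in chromosomal order, in each of 20 libraries, for Cd8 cells and for Cd4 cells; gray marks libraries with fewer than 20 assigned cells. Most columns are spread over many genes, and a few hold a single strong cell, such as Trbv12-1 in Eµ-PRMT5 spleen 5 (94.7%) and Trbv17 in Cd4 cells of Eµ-TCL1 spleen 1 (90.1%).

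In Cd8 cells of 4 of 20 libraries a single Trbv gene was carried by at least 50% of assigned cells, and in 10 of 20 by at least 25%. The 20 libraries had 8 different leading genes, and no gene led in all mice of a genotype. Spread was read as dominance, the chance in percent that 2 assigned cells of a library carry the same Trbv gene (the unbiased Simpson index), which is 100 when every cell carries 1 gene. Intervals given with shares are exact Clopper-Pearson 95% intervals, which cover counting error only.

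The Eµ-PRMT5 spleens held both the widest and the narrowest Cd8 repertoires. In spleen 5, Trbv12-1 was carried by 94.7% of assigned Cd8 cells (3606 of 3808, 93.9% to 95.4%), and these cells made up 73.5% of the T cells and 60.3% of all barcodes kept in that library. Most of the rest was Trbv4 at 5.12%. Trbv31, the only Trbv gene downstream of the constant regions and read from the opposite strand, was carried by 48.6% of Cd8 cells in spleen 2 (138 of 284, 42.6% to 54.6%). The other 3 spleens were led by Trbv13-2 at 10.1% (spleen 1, 552 cells), Trbv12-1 at 13.7% (spleen 3, 1290 cells) and Trbv1 at 18.3% (spleen 4, 60 cells, 9.52% to 30.4%). Dominance was 6.27%, 26.2%, 8.25%, 8.08% and 89.9% in spleens 1 to 5. Spleen 5 stood apart from the other 4, and the group mean of 27.7% ± 35.7 (SD, n = 5) rested on it.

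All 4 Eµ-TCL1 spleens had a Trbv gene above 25%, and each had a different one. Trbv1 was carried by 27.6% of Cd8 cells in spleen 1 (210 of 761, 24.4% to 30.9%), Trbv16 by 64.5% in spleen 2 (421 of 653, 60.7% to 68.1%), Trbv13-2 by 80.4% in spleen 3 (1220 of 1518, 78.3% to 82.3%) and Trbv19 by 26.3% in spleen 4 (247 of 939, 23.5% to 29.2%). Dominance in these spleens was 12.7%, 43.0%, 65.3% and 12.4%, with a mean of 33.3% ± 25.7 (SD, n = 4). Trbv13-2 was also the commonest gene over all libraries, but its median of 9.35% was far under its share in spleen 3.

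The Eµ-PRMT5/TCL1 spleens were closer to even. Trbv16 led spleen 1 at 24.7% (22 of 89 cells), and Trbv12-2 led spleens 2, 3 and 4 at 13.3%, 22.2% and 11.9% (957, 1469 and 641 cells). Trbv12-2 was also the gene with the second highest median over all libraries. Dominance was 9.93%, 7.37%, 9.77% and 6.68%, with a mean of 8.44% ± 1.66 (SD, n = 4), so all 4 spleens lay under the lowest Eµ-TCL1 spleen.

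Cd8 dominance ran from 6.78% to 31.4% in lymph nodes and from 6.68% to 43.0% in the spleens of the same mice. Eµ-PRMT5 spleen 5 and Eµ-TCL1 spleen 3, which had the highest values, came from mice without a lymph node library. Eµ-TCL1 nodes 1, 2 and 3 were led by Trbv13-2 at 13.7% (2539 cells), Trbv16 at 54.0% (742 of 1373, 51.4% to 56.7%) and Trbv19 at 34.2% (173 of 506, 30.1% to 38.5%), with dominance of 7.45%, 31.4% and 15.5%. The Eµ-PRMT5/TCL1 nodes 1 to 4 were led by Trbv13-1 at 30.2% (13 of 43 cells, 17.2% to 46.1%), Trbv16 at 23.1%, Trbv12-2 at 27.5% and Trbv12-2 at 14.3%, with dominance of 13.3%, 9.91%, 12.6% and 6.78%. The ranges of both groups of nodes overlapped.

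**Figure D2:**
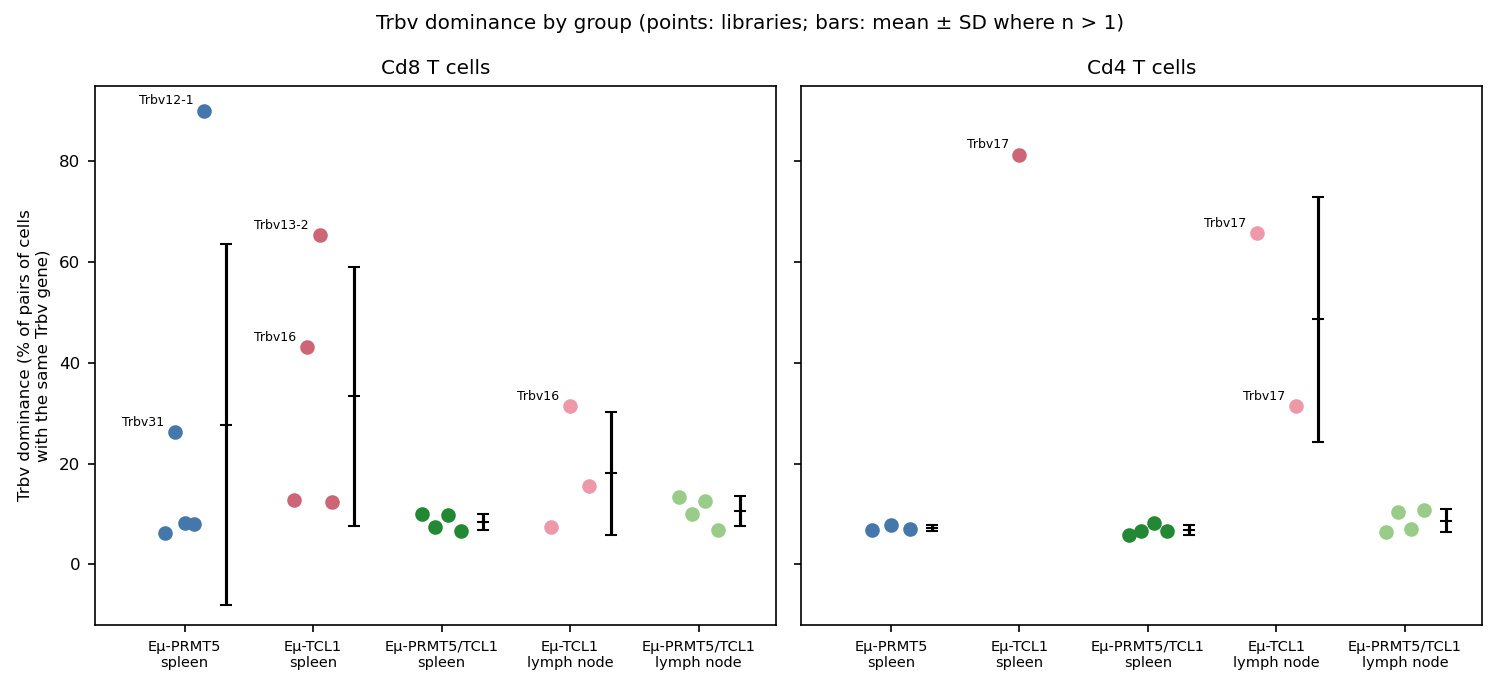
Trbv dominance (percent, the chance that 2 assigned cells of a library carry the same Trbv gene) by genotype and tissue for Cd8 and Cd4 cells; points are libraries with at least 20 assigned cells, bars are means ± SD where a group has more than 1 library, and the leading gene is named above 20. In Cd8 cells the Eµ-PRMT5/TCL1 spleens sit between 6.68 and 9.93 and the Eµ-TCL1 spleens between 12.4 and 65.3, while Eµ-PRMT5 spleen 5 stands at 89.9.

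Among the 14 libraries with enough Cd4 cells, 3 libraries from Eµ-TCL1 mice 1 and 2 had a Trbv gene above 50%. Trbv17 was carried by 90.1% of assigned Cd4 cells in Eµ-TCL1 spleen 1 (808 of 897, 87.9% to 92.0%), by 80.8% in lymph node 1 of the same mouse (210 of 260, 75.4% to 85.4%) and by 55.3% in lymph node 2 of another Eµ-TCL1 mouse (21 of 38, 38.3% to 71.4%). The spleen of that other mouse, with too few cells for the comparison, held Trbv17 in 2 of 19 assigned Cd4 cells (10.5%, 1.301% to 33.1%) and was led by Trbv20 in 4 of 19 (21.1%). Trbv17 also led Eµ-PRMT5/TCL1 lymph node 4 at 24.02% (43 of 179, 17.96% to 30.96%). In the other 10 libraries the leading gene was carried by 11.2% to 20% of Cd4 cells. In Cd8 cells the highest share of Trbv17 in any library was 4.65%.

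Dominance in Cd4 cells was 81.2% in the single Eµ-TCL1 spleen with enough cells, 7.22% ± 0.562 (SD, n = 3) in Eµ-PRMT5 spleens and 6.85% ± 0.984 (SD, n = 4) in those of Eµ-PRMT5/TCL1 mice. Among nodes it was 65.7% and 31.4% in the Eµ-TCL1 mice and 8.71% ± 2.24 (SD, n = 4) in the Eµ-PRMT5/TCL1 mice. Of the other 3 Eµ-TCL1 spleens, none had 20 assigned Cd4 cells (19, 19 and 6 in spleens 2, 3 and 4), so their dominance did not enter. The Trbv gene furthest above its median share over other spleens was carried by 4, 7 and 2 of these cells.

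The genotype comparisons asked whether adding or replacing the transgene went with a narrower repertoire, and 6 of them were tested by exact two-sided permutation over libraries. All mice were taken at early removal criteria, and the study reports median survival that was longest in Eµ-PRMT5 and shortest in Eµ-PRMT5/TCL1 mice. Age did not enter these or the later genotype comparisons, so genotype and age cannot be told apart in them. The mean Cd8 dominance of Eµ-PRMT5/TCL1 spleens minus that of Eµ-TCL1 spleens was -24.9 percentage points (exact permutation p = 0.0286, the smallest that 4 against 4 libraries can give, adjusted p = 0.171). It was -14.3 points without Eµ-TCL1 spleen 3. The groups did not overlap, and the difference did not pass the adjustment over the 6 tests. No difference could have passed, because even the smallest p-values that these 6 designs allow stay above 0.05 after adjustment. For Eµ-PRMT5 minus Eµ-TCL1 spleens the mean difference was -5.61 points (exact permutation p = 0.778, adjusted p = 0.778), and it turned to 5.04 without Eµ-TCL1 spleen 3. Between Eµ-PRMT5/TCL1 and Eµ-TCL1 lymph nodes it was -7.46 points (exact permutation p = 0.343, adjusted p = 0.6), with -0.826 points without Eµ-TCL1 node 2 and -12.8 without node 1. Both spleen comparisons share the Eµ-TCL1 spleens.

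In Cd4 cells the differences were large but rested on 1 Eµ-TCL1 spleen and 2 Eµ-TCL1 lymph nodes. They were -74.0 points for Eµ-PRMT5 spleens (exact permutation p = 0.5), -74.4 points for Eµ-PRMT5/TCL1 spleens (exact permutation p = 0.4) and -39.9 points for lymph nodes (exact permutation p = 0.133), each the smallest p that its design allows. Adjusted over the 6 tests these exact permutation values were 0.6, 0.6 and 0.4. None of the genotype comparisons of dominance passed, and none could have passed with these numbers of libraries, so this is no result about genotype. The p-values cover the spread between these mice, whose litters the labels do not give.

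Alpha chains gave a second view of the same cells, because the assignment by Trbv did not use them. Where a Trbv gene was over-represented, its cells often had a leading Trav family (the number before the dash, with the d and n copies of a gene merged), although the leading family was below 50% of the cells in 7 of 20 Cd8 libraries. In Eµ-TCL1 spleen 1, 73.8% of Trbv1 cells with a Trav gene used Trav8 (90 of 122), against 1.53% of the other Cd8 cells. In Eµ-TCL1 spleen 4, 69.9% of Trbv19 cells used Trav10 (116 of 166), against 5.23% of the others. In Eµ-PRMT5 spleen 2, 69.7% of Trbv31 cells used Trav13 (83 of 119), against 8.91% of the others. A second family followed in each of these 3 libraries, Trav4 at 20.5% of the Trbv1 cells, Trav12 at 14.5% of the Trbv19 cells and Trav14 at 29.4% of the Trbv31 cells.

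In the 3 libraries with the highest dominance of Cd8 cells the other Cd8 cells carried the same alpha family too. In Eµ-PRMT5 spleen 5, Trav13 was found in 72.2% of Trbv12-1 cells (1411 of 1954) and in 60% of the other cells, and Trav10 followed with 27.1% of Trbv12-1 cells. Of those other cells 97.5% held Trbv4, the gene found beside Trbv12-1. In Eµ-TCL1 spleen 3, Trav12 was found in 70.9% of Trbv13-2 cells (202 of 285) and 52.7% of the others, and in Eµ-TCL1 spleen 2, Trav13 was found in 83.2% of Trbv16 cells (218 of 262) and 29.9% of the others. How many of the other cells belong with the leading cells in these libraries was not tested.

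Libraries led at a lower share ranged from loose to tight pairing. Trbv16 cells used Trav10 in 10 of 12 cells (83.3%) of Eµ-PRMT5/TCL1 spleen 1 against 7.69% of the others, and in 86 of 110 (78.2%) of Eµ-PRMT5/TCL1 lymph node 2 against 4.53%. Trbv12-2 cells used Trav14 at 51.5% in Eµ-PRMT5/TCL1 spleen 2 against 5.24% of the others, and Trav13 at 48.1% in spleen 3 against 18.7%. Trbv13-2 cells of Eµ-PRMT5 spleen 1 used Trav14 at 21.6% against 11.1%, and Trbv12-1 cells of Eµ-PRMT5 spleen 3 used Trav12 at 29.3% against 7.84%. In the Cd4 cells of Eµ-TCL1 spleen 1, 95.9% of Trbv17 cells used Trav4 (710 of 740) against 1.92% of the others, and in lymph node 1 it was 96.9% (188 of 194) against 3.23%. In 2 further libraries led by Trbv17 the family was Trav13, in 13 of 19 Trbv17 cells (68.4%) of Eµ-TCL1 lymph node 2 and in 14 of 15 (93.3%) from Eµ-PRMT5/TCL1 lymph node 4.

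**Figure D3:**
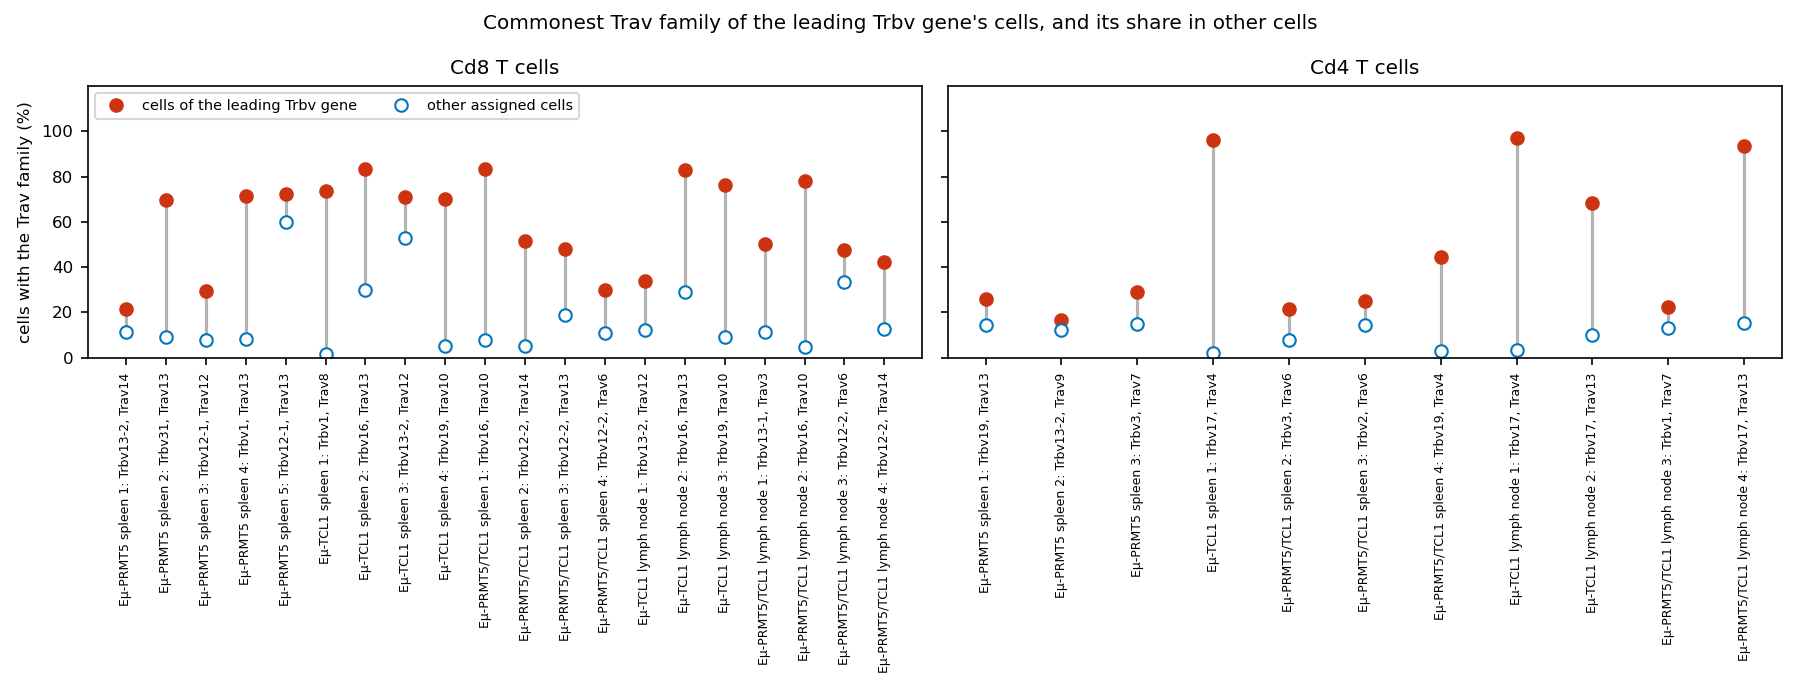
Share (percent) of cells that use the Trav family commonest in cells of the leading Trbv gene, among cells with a Trav gene, for the leading Trbv cells and for the other assigned cells of the same library, in 20 Cd8 and 11 Cd4 libraries with at least 5 such cells. The family was chosen in the leading cells, which favors a higher share there, so the same direction in all 31 plotted libraries is no result by itself. The shares were 95.9 against 1.92 in Cd4 cells of Eµ-TCL1 spleen 1 and 72.2 against 60 in Cd8 cells of Eµ-PRMT5 spleen 5.

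Fewer cells also held a Traj segment, which narrows the alpha chain further. Among Trbv16 cells with a Traj UMI, Traj48 was the segment in 20 of 22 cells of Eµ-TCL1 spleen 2 and in 54 of 57 cells of lymph node 2 of the same mouse. The Trbv12-1 cells of Eµ-PRMT5 spleen 5 split into Traj23 in 16 and Traj26 in 14 of 30 cells, beside their split into Trav13 and Trav10. The Trbv13-2 cells of Eµ-TCL1 spleen 3 held Traj22 in 20 and Traj48 in 8 of 33 cells. Trbc1, the upstream of both constant region genes, was the constant gene of 0 of 2000 Trbv12-1 cells with a Trbc UMI in Eµ-PRMT5 spleen 5, which allows a share of up to 0.15%, and of 1.38% of Trbv13-2 cells (16 of 1162) in Eµ-TCL1 spleen 3, against 13.9% of the other cells of that spleen. The other cells of Eµ-PRMT5 spleen 5 also held it in 0 of 87, which allows up to 3.45%. In 6 of 20 Cd8 libraries the share was higher in the leading cells than in their neighbors, for example at 33.3% of Trbv16 cells (114 of 342) against 20.8% in Eµ-TCL1 spleen 2, 27.8% against 18.5% in lymph node 2 of that mouse, and 40.4% of Trbv31 cells against 10.2% in Eµ-PRMT5 spleen 2. These differences were not tested.

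Several pairs of V genes were found in both the spleen and the lymph node of a mouse. In Eµ-TCL1 spleen 2 and lymph node 2, which come from 1 mouse, Trbv16 with Trav13 made up 54.6% and 42.7% of Cd8 cells with both chains, and at most 4.92% in any library of other mice. Trbv19 with Trav10 made up 22.7% and 36.4% in Eµ-TCL1 spleen 4 and lymph node 3 (at most 2.63% elsewhere). Trbv16 with Trav10 made up 26.3% and 20.5% in Eµ-PRMT5/TCL1 spleen 1 and lymph node 2 (at most 3.23% elsewhere). Trbv16 was joined to different alpha families in different mice.

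Other pairs were uneven between tissues. Trbv1 with Trav8 was at 20.04% in Eµ-TCL1 spleen 1 and 6.26% in lymph node 1 of that mouse, with at most 0.670% elsewhere. Trbv3 with Trav6 was at 8.15% in Eµ-PRMT5/TCL1 spleen 3 and 14.9% in its lymph node 3. Trbv13-1 with Trav3 was at 20% (6 of 30 cells) in Eµ-PRMT5/TCL1 lymph node 1 and 3.79% in spleen 4 of the same mouse, with up to 6.58% in other mice. Trbv5 with Trav13 was at 7.81% (35 of 448 cells) in Eµ-PRMT5/TCL1 spleen 4 and at 0 in lymph node 1 of that mouse, where only 30 cells held both chains. In Cd4 cells, Trbv17 with Trav4 made up 89.6% in Eµ-TCL1 spleen 1 and 83.6% in its lymph node 1. Trbv17 with Trav13 made up 16.1% (14 of 87 cells) in Eµ-PRMT5/TCL1 lymph node 4 and 2.29% in spleen 2 of that mouse. The latter pair was not particular to that mouse, with 44.8% (13 of 29 cells) in Eµ-TCL1 lymph node 2. Of the Trbv17 cells with a Traj UMI in both tissues of Eµ-TCL1 mouse 1, 14 of 18 and 5 of 8 held Traj22 and the rest Traj40. In other mice Trbv17 with Trav4 was found in 4 Cd4 cells of Eµ-PRMT5 spleen 2 (10.3% of those with both chains), of which 1 barcode also occurred in Eµ-TCL1 spleen 1 or lymph node 1, and in 1 cell of Eµ-PRMT5/TCL1 spleen 2.

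Among mice sampled in spleen only, Trbv12-1 with Trav13 made up 68.9% of Cd8 cells with both chains in Eµ-PRMT5 spleen 5 and at most 0.955% elsewhere, Trbv13-2 with Trav12 made up 41.1% in Eµ-TCL1 spleen 3 (at most 4.91% elsewhere) and Trbv31 with Trav13 made up 37.7% in Eµ-PRMT5 spleen 2 (at most 2.07% elsewhere). Eµ-PRMT5 spleen 3, whose leading gene had a modest share, held Trbv4 with Trav4 at 12.4% (at most 3.23% elsewhere).

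Over all Trbv genes, the Cd8 usage of a lymph node overlapped that of its own spleen by 59.3% to 87.6% (the shared part of both distributions) and that of the other spleens by a median of 39.7% to 65.4%. The own spleen was the closest of 13 for 5 of 7 nodes. The exceptions were Eµ-TCL1 lymph node 1, whose own spleen ranked 5, and Eµ-PRMT5/TCL1 lymph node 2, whose own spleen ranked 3. In Cd4 cells the own spleen was the closest of 8 for 4 of 5 nodes, the exception being Eµ-PRMT5/TCL1 lymph node 4. The leading Cd8 gene was the same in both tissues in 5 of 7 mice.

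**Figure D4:**
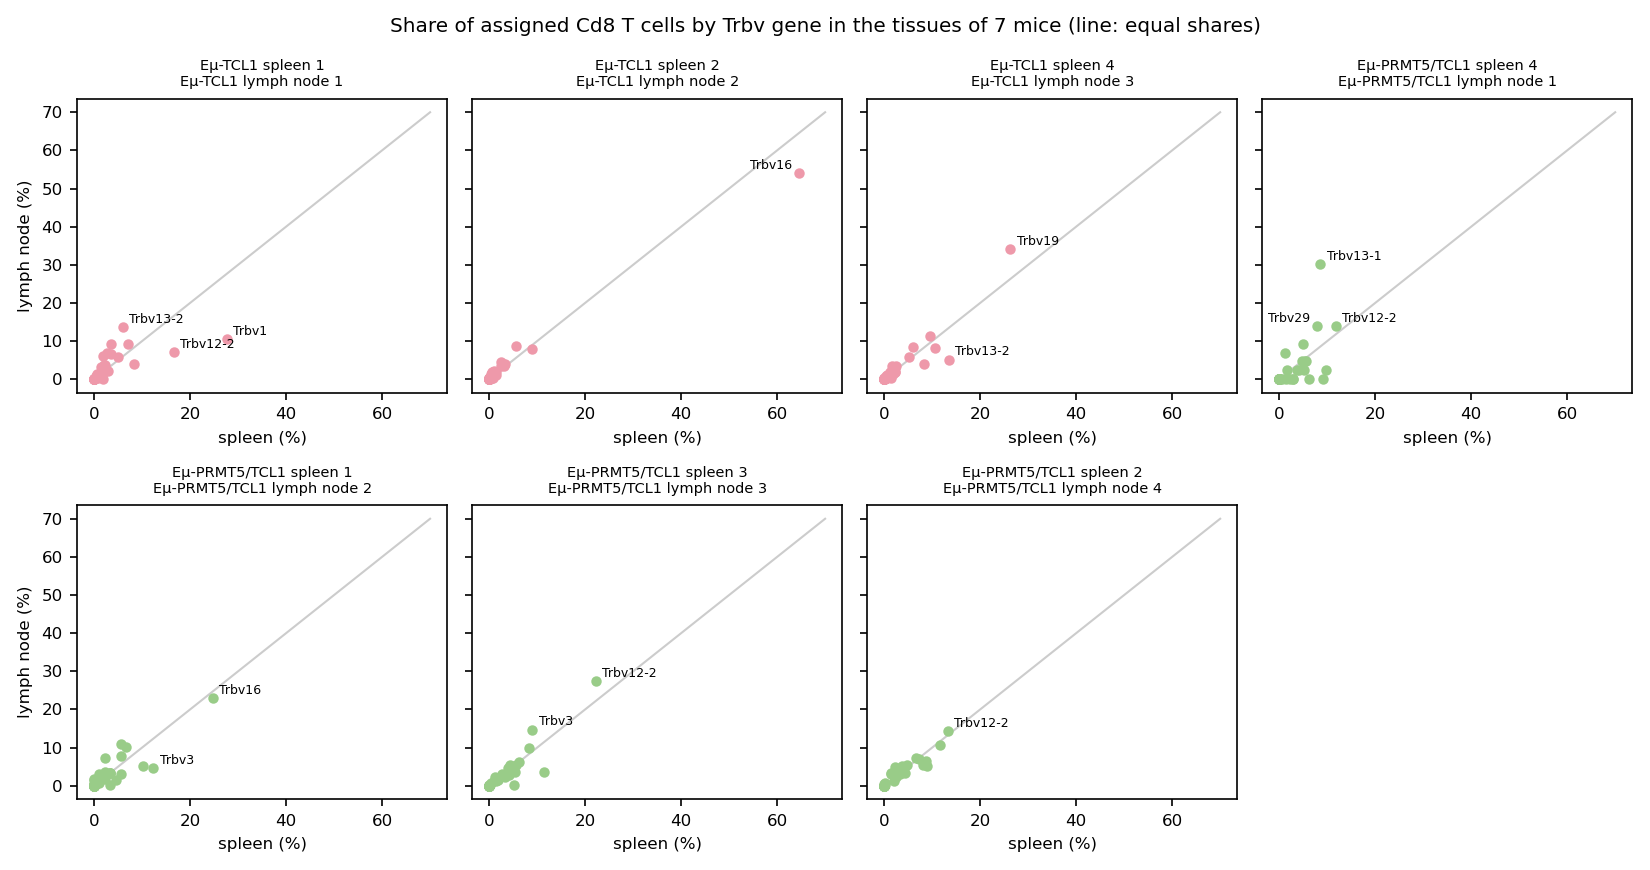
Share of assigned Cd8 cells (percent) of each Trbv gene in the spleen (x axis) and in the lymph node (y axis) of the same mouse, for 7 mice; points are genes and the line marks equal shares. Trbv16 lies far from the other genes in Eµ-TCL1 mouse 2 (64.5 in spleen and 54.0 in node), Trbv19 in the mouse of spleen 4 (26.3 and 34.2), and Trbv1 has a higher share in Eµ-TCL1 spleen 1 than in its node (27.6 and 10.4).

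Paired comparisons of dominance within libraries or mice were made by exact sign-flip permutation, 6 in all. Dominance in the lymph node minus that in the spleen was -0.706 points in Cd8 cells (7 mice, higher in 3, exact permutation p = 0.828) and -1.62 points in Cd4 cells (5 mice, higher in 2, exact permutation p = 0.812). Dominance of Cd8 cells minus that of Cd4 cells was -5.39 points in spleens (8 libraries, higher in Cd8 cells in 6, exact permutation p = 0.984) and -8.43 in lymph nodes (6 libraries, higher in 2, exact permutation p = 0.781). The spleens with the highest Cd8 dominance, Eµ-PRMT5 spleen 5 (89.9%), Eµ-TCL1 spleen 3 (65.3%) and Eµ-TCL1 spleen 2 (43.0%), had too few Cd4 cells to enter. Among the libraries that entered, the means were set by the Cd4 cells of Eµ-TCL1 mice, and without Eµ-TCL1 spleen 1 the difference in spleens turned to 3.62. Adjusted over the 6 tests all 4 exact permutation values were 0.984.

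Cd8 cells with a UMI of Ccl5, a chemokine gene of antigen-experienced Cd8 cells, had higher dominance than those without in each of the 9 libraries with 20 assigned cells of both kinds, and neither test passed. Ambient RNA was not removed, and a Ccl5 UMI was found in 1.54% to 35.4% of B cells (chosen without Cd3 UMIs, as above), which should lack it (0.0154 to 1.01 UMIs per B cell, against 15.9 to 111 per Cd8 cell, at a median depth over libraries of 7273 and 4672 UMIs). It was found in 60.9% to 99.8% of Cd8 cells and in 18.2% to 96.7% of Cd4 cells. In Eµ-PRMT5 spleens 1, 3 and 5 dominance was 6.398%, 8.35% and 90.01% with Ccl5 and 6.23%, 6.19% and 77.3% without. In Eµ-PRMT5/TCL1 spleens 1 and 4 it was 18.7% and 6.69% with Ccl5 and 6.67% and 6.15% without. The mean difference was 5.52 points over these 5 spleens (exact permutation p = 0.0625, the smallest possible, adjusted p = 0.375). In 4 lymph nodes it was 3.66 points, higher in 4 of 4 (exact permutation p = 0.125, the smallest possible, adjusted p = 0.375). No Eµ-TCL1 spleen entered, because each held fewer than 20 assigned Cd8 cells without Ccl5.

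Summed UMIs of each library's Cd8 or Cd4 cells were then compared between genotypes gene by gene with edgeR's quasi-likelihood test and Benjamini-Hochberg adjustment over all genes tested, in libraries with at least 30 cells. In Cd8 cells no V gene passed in any comparison. Of the V genes that passed the filter on low counts, the calls were 0 of 57 for Eµ-PRMT5 against Eµ-TCL1 spleens, 0 of 57 for Eµ-PRMT5/TCL1 against Eµ-TCL1 spleens and 0 of 59 for lymph nodes, and 0% of all genes passed in each. At an unadjusted edgeR p under 0.05, 3 V genes were higher and 2 lower, 6 higher and 0 lower, and 7 higher and 1 lower, and DESeq2 called 0, 0 and 1 after adjustment. Over all genes, 561 of 10270, 843 of 10270 and 1473 of 10159 were under that unadjusted limit in either direction. The median V gene difference was 0.46, 0.75 and 0.51 on the log2 scale, against 0.01, -0.01 and -0.01 over all genes.

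In Cd4 cells Trbv17 of Eµ-TCL1 mouse 1 was among the calls. The other 3 Eµ-TCL1 spleens had too few Cd4 cells, so both comparisons of spleens set 1 mouse, whose spread was assumed to be like that of the other libraries, against several, and they describe that library rather than a genotype. Against that single Eµ-TCL1 spleen 9 of 61 V genes were called in 3 Eµ-PRMT5 spleens (7 higher and 2 lower in Eµ-PRMT5), while 1.76% of all genes were called (0.672% higher and 1.09% lower). Trbv17 stood at 4374 CPM (UMIs scaled to the total UMIs of the summed cells) in Eµ-TCL1 spleen 1 and at 23.9, 254 and 69.6 CPM in Eµ-PRMT5 spleens 1 to 3, a log2 difference of -5.48 ± 1.15 (SE, edgeR adjusted p = 0.0362). Trav9-2 was lower as well, at 112 CPM in the Eµ-TCL1 spleen and 18.3, 15.2 and 15.8 CPM in the Eµ-PRMT5 spleens, by -2.83 ± 0.60 (edgeR adjusted p = 0.0389). The Eµ-TCL1 library was above every Eµ-PRMT5 library in both genes.

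The 7 V genes called higher in Cd4 cells of Eµ-PRMT5 spleens were Trbv2, Trbv12-1, Trbv13-1, Trbv13-3, Trbv26, Trbv29 and Trav6-7-dv9, with log2 differences of 4.34 to 6.79 and edgeR adjusted p-values of 0.0147 to 0.0410. Trbv13-1, for example, stood at 179, 49.3 and 169 CPM in Eµ-PRMT5 spleens 1 to 3 and at 5.90 CPM in the Eµ-TCL1 spleen. Trbv2 rested on 1 UMI in the Eµ-TCL1 spleen (0.185 CPM) against 30.005, 3.79 and 50.6 CPM. Trav6-7-dv9 also rested on 1 UMI there, so the fitted sizes of both depend on the prior count. Trbv17 was carried by 90.1% of the assigned Cd4 cells of that spleen, which leaves few cells for the other genes. With at least 100 cells per library the comparison called 0 V genes, without Eµ-PRMT5 spleen 3 also 0 and without Eµ-PRMT5 spleen 1 it called 1, within a range of 0 to 26 on leaving out each library.

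Against the same Eµ-TCL1 spleen, 2 of 61 V genes were called lower in the Cd4 cells of 4 Eµ-PRMT5/TCL1 spleens, while 0.128% of all genes were called (0.0107% higher and 0.117% lower). Trav4-3, a partner of Trbv17 in the Eµ-TCL1 mouse, stood at 776 CPM there and at 0, 2.28, 0 and 3.83 CPM in Eµ-PRMT5/TCL1 spleens 1 to 4 (log2 difference -8.50 ± 1.02, edgeR adjusted p = 0.0143). Trav9-2 stood at 112 CPM against 0, 1.14, 0 and 12.8 CPM (-4.88 ± 0.66, edgeR adjusted p = 0.0143). Trbv17 itself was at 0, 42.2, 68.8 and 217 CPM, under the Eµ-TCL1 value in all 4, and did not pass. With at least 100 cells per library or without Eµ-PRMT5/TCL1 spleen 3 the comparison called 0 V genes, and without spleen 4 it called 11. The median log2 difference of the V genes was 4.16, against 0 over all genes, so more V genes were higher than lower in Eµ-PRMT5/TCL1 spleens. Trav4-3 and Trav9-2 were high in the 1 Eµ-TCL1 library. Among the few Cd4 cells with a Trav family in other Eµ-TCL1 spleens, 1 of 14 (spleen 3) and 1 of 3 (spleen 4) used Trav4. Trav9 was used by 2 of 14 in spleen 3, and spleen 2, with 7 cells, showed neither family. Whether these spleens share the levels of spleen 1 was not tested.

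In lymph nodes 9 of 21 V genes were called between 3 Eµ-PRMT5/TCL1 and 2 Eµ-TCL1 libraries, while 4.07% of all genes were called (2.58% higher and 1.49% lower). Trbv17 was at 3162 and 969 CPM in Eµ-TCL1 nodes 1 and 2 and at 0, 95.2 and 204 CPM in Eµ-PRMT5/TCL1 nodes 2 to 4 (-3.97 ± 0.61, edgeR adjusted p = 0.00311), where the 0 lies under 17.2 CPM, the level of 3 UMIs in that library. Trav9-2 was at 104 and 89.9 CPM against 5.72, 3.40 and 2.47 CPM (-4.70 ± 0.44, edgeR adjusted p = 0.000110). Trav4-3 was lower too (-4.47 ± 0.98, edgeR adjusted p = 0.0214), although it was at 668 CPM in Eµ-TCL1 node 1 and at 0 in node 2, against 28.6, 22.1 and 4.94 CPM in Eµ-PRMT5/TCL1 nodes 2 to 4. Trbv17 and Trav9-2 were thus above every Eµ-PRMT5/TCL1 node in both Eµ-TCL1 nodes, while Trav4-3 was high in node 1 alone, and node 2, where 3 UMIs would be 14.99 CPM, did not separate from the Eµ-PRMT5/TCL1 nodes.

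The 6 V genes called higher in the Cd4 cells of Eµ-PRMT5/TCL1 nodes were Trbv13-1 (4.07 ± 0.52 on the log2 scale, edgeR adjusted p = 0.00132), Trbv13-2 (1.62 ± 0.41), Trbv14 (7.89 ± 1.03), Trbv31 (5.57 ± 0.83), Trav10 (5.16 ± 1.10) and Trav14-2 (4.47 ± 0.79). Eµ-TCL1 nodes 1 and 2 held 0 and 0 UMIs of Trbv14, 2 and 1 of Trbv31, 1 and 0 of Trav10 and 2 and 0 of Trav14-2, so the fitted sizes of these 4 genes depend on the prior count. Without Eµ-PRMT5/TCL1 node 3 the comparison called 3 V genes, and without Eµ-TCL1 node 2 it called 14. Fewer cells of a kind and less RNA per cell cannot be told apart in such sums.

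Cells of the over-represented Trbv gene were finally compared with the other assigned Cd8 cells of the same library, with all Trbv and Trav genes removed. The over-represented gene was the Trbv gene whose share exceeded its median in the other spleens (for nodes, the other nodes) by most, which was the leading gene in 17 of 20 libraries. The exceptions were Trbv29 in Eµ-PRMT5 spleen 1 (8.15% against a median of 2.53%), Trbv5 in Eµ-PRMT5/TCL1 spleen 4 (9.05% against 1.80%) and Trbv1 in Eµ-TCL1 lymph node 1 (10.4% against 2.62%). Over 13 spleens with the library as block, edgeR called 237 of 9432 genes, 56 higher and 181 lower in cells of the over-represented gene (2.51%, with 0.594% higher and 1.92% lower). DESeq2 split its 307 calls more evenly, 157 higher and 150 lower. Without the library as block 0 genes were called, and leaving out each spleen gave 90 (without Eµ-PRMT5/TCL1 spleen 3) to 404 (without Eµ-PRMT5 spleen 4).

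The over-represented cells carried less of the inhibitory receptors and genes of exhaustion than their neighbors. Of 11 such genes 10 were tested, and 8 were lower and 0 higher, with a median of -1.84 against -0.01 over all genes. The 8 became 5 by DESeq2, 5 when any of Eµ-PRMT5/TCL1 spleens 3 and 4 and the spleen of Eµ-TCL1 mouse 1 was left out, and 0 with no library block. Lag3, an inhibitory receptor, was lower in 12 of 13 spleens, with a median of 0.947 against 25.1 CPM (log2 difference -3.50 ± 0.36, edgeR adjusted p = 9.96e-06). Pdcd1, which encodes PD-1, was lower in 12 of 13, with 23.7 against 97.2 CPM (-2.29 ± 0.32, edgeR adjusted p = 0.000297). Rgs16, a regulator of G protein signaling, was lower in 12 of 13, with 2.86 against 29.1 CPM (-2.75 ± 0.34, edgeR adjusted p = 8.88e-05). Ctla4 was lower in 11 of 13 (-1.99 ± 0.27, edgeR adjusted p = 0.000297). Entpd1 (-0.63) and Tnfrsf9 (-0.10) did not pass. In the 3 spleens with the highest Cd8 dominance, many of the other cells carried the alpha family of the over-represented cells, as given above. Those spleens count in these tallies, and how many of their other cells belong with the over-represented cells was not tested.

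Library by library, the Trbv1 cells of Eµ-TCL1 spleen 1 held 3.51 CPM of Lag3 and 20.2 CPM of Pdcd1 and their neighbors 200.1 and 353 CPM. The Trbv12-2 cells of Eµ-PRMT5/TCL1 spleen 3 held 7.40 and 51.4 CPM against 98.6 and 313 CPM, and the Trbv31 cells of Eµ-PRMT5 spleen 2 held 0 UMIs of both against 4.09 and 97.2 CPM. The exceptions had few cells. The 11 Trbv1 cells of Eµ-PRMT5 spleen 4 held 206 CPM of Lag3 against 143, and the 22 Trbv16 cells of Eµ-PRMT5/TCL1 spleen 1 held 117 CPM of Pdcd1 against 48.5. Lag3 was at 0 UMIs in the over-represented cells of 4 spleens, so the size of its fitted difference depends on the prior count.

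Other lists of genes gave the following counts. Of 15 genes of memory or effector cells, 2 were lower and 0 higher (median -0.08). They were Gzmk, a granzyme, with a median of 16.2 against 161 CPM and lower in 12 of 13 spleens (-2.81 ± 0.36, edgeR adjusted p = 8.88e-05), and Id2, a transcriptional regulator (-0.53 ± 0.08, edgeR adjusted p = 0.00068). Of 8 genes of naive T cells, 1 was higher (median 0.28). It was Satb1, a chromatin organizer, with 496 against 382 CPM and higher in 11 of 13 spleens (0.46 ± 0.10, edgeR adjusted p = 0.0210). Of 5 tested genes of regulatory T cells, Izumo1r (-2.47), Ikzf2 (-2.46 ± 0.40, edgeR adjusted p = 0.00121) and Tnfrsf4 (-1.33) were lower. Ikzf2, which encodes Helios, was lower in 13 of 13 spleens. Of 10 genes of the cell cycle 0 passed (median -0.62, Hmgb2 -0.36 and Ccna2 -1.02), and of 17 genes of the receptor complex and its signaling only the adaptor Lat passed (-0.28). Of 5 tested genes of follicular helper cells, Sh2d1a (-0.39), a signaling adaptor, was lower.

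**Figure D5:**
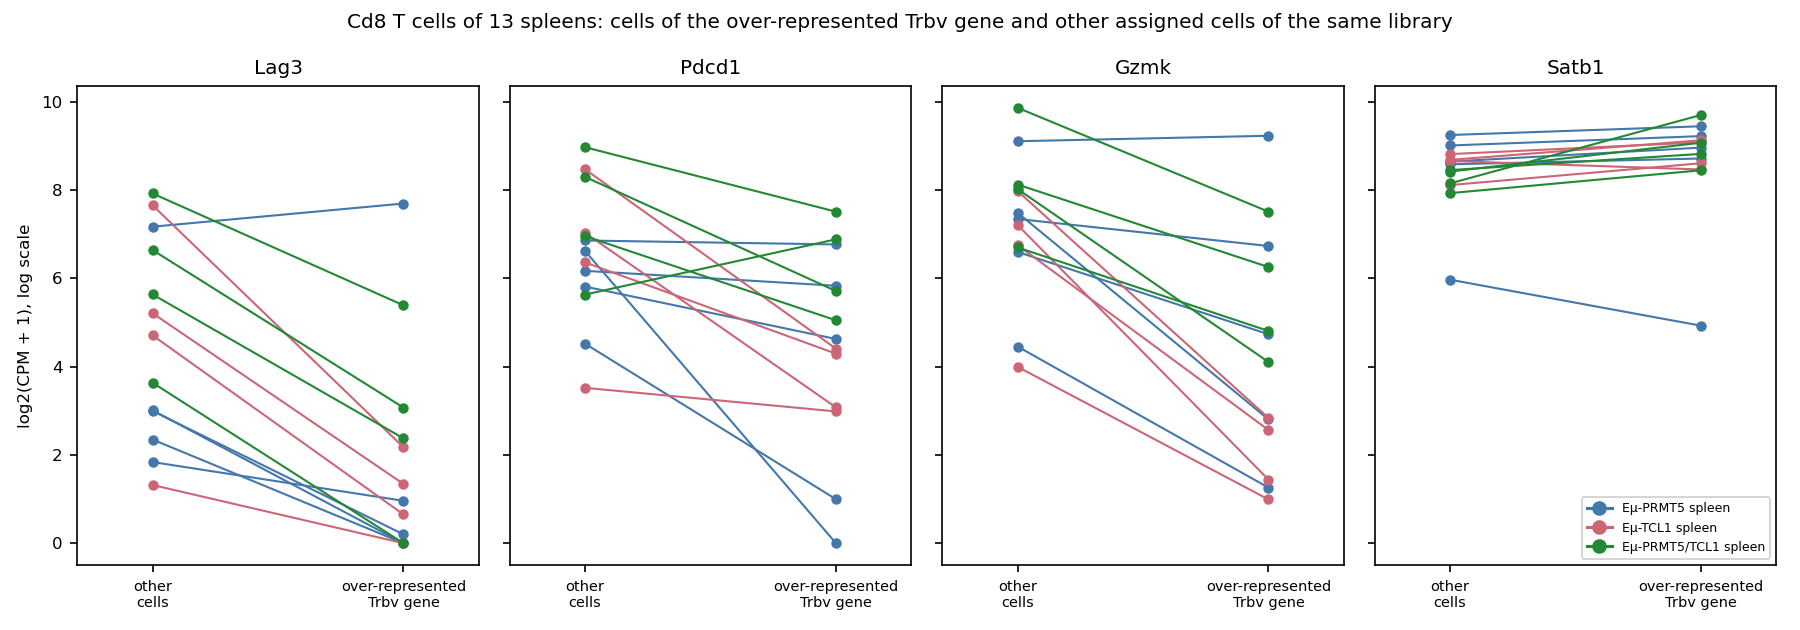
Levels of Lag3, Pdcd1, Gzmk and Satb1 on the log2(CPM + 1) scale in cells of the over-represented Trbv gene and in the other assigned Cd8 cells of each of 13 spleens; lines join both values of a spleen and colors give the genotype. Lag3, Pdcd1 and Gzmk are lower in the over-represented cells in 12 of 13 spleens and Satb1 is higher in 11 of 13.

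Markers of other cell types also differed between both classes of cells. Of 6 tested B cell genes only Igkc passed and was lower (-1.42, edgeR adjusted p = 0.00068), and the summed level of the list was lower in 10 of 13 spleens (57.9 to 2273 CPM in over-represented and 108 to 1324 CPM in other cells). Of 5 monocyte or macrophage genes, Csf1r (-1.53) and Cd68 (-0.77) were lower, with sums of 10.3 to 1068 against 5.98 to 2068 CPM. Of 6 natural killer genes, Klra4 (-3.33) and Klra8 (-1.72) were lower, with sums of 21.05 to 774 against 3.98 to 813 CPM. None of the tested plasma cell, neutrophil, erythroid or gamma delta T cell genes passed (1 of 8 gamma delta genes was tested, Tcrg-C2, at -2.86). The over-represented cells were the deeper class in 12 of 13 spleens, by a median ratio of 1.08 in UMIs per cell (0.959 to 1.71). The part of these differences in the lower inhibitory genes was not tested.

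In the 7 lymph nodes the same fit called 40 of 9591 genes (0.417%), 4 higher (0.0417%) and 36 lower (0.375%) in cells of the over-represented gene, and 6 of 11 inhibitory genes were among those lower (median -2.03). The log2 difference was -2.09 ± 0.31 for Pdcd1 (edgeR adjusted p = 0.00135), -2.03 for Lag3 (edgeR adjusted p = 0.0273), -1.73 for Gzmk (edgeR adjusted p = 0.00264) and -2.35 for Ctla4 (edgeR adjusted p = 0.00861). Satb1 was at 0.09 and did not pass. Of 5 tested genes of regulatory T cells, Ikzf2 (-2.20) and Tnfrsf4 (-1.50) were lower, and of 10 genes of the cell cycle Pclaf (-1.41, edgeR adjusted p = 0.00289) and Birc5 (-1.55, edgeR adjusted p = 0.00799) were lower. Of 6 natural killer genes Klra8 was lower (-1.63, edgeR adjusted p = 0.0360). There the over-represented cells were not the deeper class, with a median ratio of 0.981. The exception was again a library with few cells, Eµ-PRMT5/TCL1 node 1, whose 13 Trbv13-1 cells held 498 CPM of Pdcd1 against 393. All 7 nodes come from mice whose spleens were in the fit above, so they are another tissue and not further mice.

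In Cd4 cells, 6 spleens and 4 lymph nodes had enough cells of both classes. edgeR called 0 of 6569 genes in spleens (0%, with 86 higher and 167 lower at an unadjusted p under 0.05, and 0 by DESeq2) and 0 of 4125 in lymph nodes (0%). The Trbv17 cells of Eµ-TCL1 mouse 1 entered as 1 library in each. Of 11 inhibitory genes 0 passed in the spleens, and their median of 0.20 had the opposite sign to that in Cd8 cells, against -0.03 over all genes. The members with the lowest p went the other way, Tnfrsf9 (-1.26) being lower in 6 of 6 spleens and Nr4a2 (-0.78) in 5 of 6. The summed level of the list was lower in 4 of 6 spleens. In 4 lymph nodes 0 of 8 passed (median -0.47). Pdcd1 was at 1125 CPM in the Trbv17 cells of Eµ-TCL1 spleen 1 against 338 CPM in the other Cd4 cells, at 198 against 165 CPM in lymph node 1 and at 404 against 116 CPM in lymph node 2, but at 99.8 against 388 CPM in Eµ-PRMT5/TCL1 lymph node 4. Gzmk was at 1276 against 1281 CPM in Eµ-TCL1 spleen 1, at 1585 against 773 CPM in lymph node 1, at 0 UMIs against 698 CPM in lymph node 2 and at 66.6 against 555 CPM in Eµ-PRMT5/TCL1 lymph node 4. Neither gene had 1 direction over these libraries.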

How the data were processed

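Single-cell 3′ libraries (10x Genomics v2) of 13 spleens and 7 lymph nodes were used. The values are the authors' UMI counts per gene and barcode, deposited as matrices on GRCm38 and not normalized. The submitters' processing notes name Cell Ranger 2.0.1 and Seurat 2.2.1, and the matrix headers carry version 3.1.0. Samples were grouped by the labels, and spleens were matched to lymph nodes of the same mouse by the mouse number in the labels. Same-numbered replicates of different genotypes are different mice.

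Barcodes were kept at 1500 UMIs or more and at most 10% mitochondrial UMIs, and T cells and their Cd8 and Cd4 classes were set by the marker UMIs given above. A cell was assigned to the Trbv gene, and to the Trav family, with most of its UMIs. Ambient RNA was not removed. Doublets were not removed beyond the limit on Cd79a and Cd79b, and removal by Scrublet was an alternative. Dominance needed 20 assigned cells per library, and groups were compared by exact two-sided permutation or sign-flip tests with Benjamini-Hochberg adjustment over 6 tests in each family. Counts summed per library (at least 30 cells) were tested with edgeR's quasi-likelihood test (TMM, filterByExpr) and Benjamini-Hochberg adjustment over all genes, at 0.05. Classes of cells by Trbv gene (at least 10 cells each) were tested with the library as block. The standard error is the log2 difference divided by the root of F. DESeq2 was an alternative. The fits were tested on simulated data with known changes. Single-library shares carry exact 95% intervals and floors of 3 counts, which cover counting error only.

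The members and gene lists were chosen with earlier results of these data known. The text names the leading and over-represented Trbv genes and leading Trav families of each library, the 5 Trbv genes with the highest median share, every V gene called and at most 4 genes per list. The uncalled inhibitory genes Entpd1 and Tnfrsf9 in Cd8 cells, Pdcd1 and Gzmk in Cd4 cells, and single Traj, Trbc1 and pair values were named after their values were seen. Clonotypes by junction sequence were not analysed here. Software was Python 3.11.15, numpy 2.4.6, scipy 1.17.1, pandas 2.3.3, scanpy 1.11.5, Biopython 1.88, R 4.3.3, edgeR 4.0.16 and DESeq2 1.42.0.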

Additional observations from a re-analysis of the deposited data

Results flagged for a closer look

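Cd8 dominance was 89.9% in Eµ-PRMT5 spleen 5, far from the other 4 Eµ-PRMT5 spleens (its gap to the nearest was 0.762 of the range of the group). Chance alone flags about 1 in 20 groups, and 26 groups of values were examined in this way.

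T cells without a UMI of Cd4, Cd8a or Cd8b1 entered no comparison of the report, and they are given here for the 6 libraries in which a Trbv gene was carried by at least 50% of assigned Cd8 or Cd4 cells. Trbv12-1 was carried by 88.2% of 306 such cells in Eµ-PRMT5 spleen 5, Trbv13-2 by 69.8% of 86 in Eµ-TCL1 spleen 3, and Trbv16 by 42.3% of 104 in Eµ-TCL1 spleen 2 and 36.96% of 92 in Eµ-TCL1 lymph node 2. Trbv17, the gene of the Cd4 cells, was carried by 71.1% of 508 such cells in Eµ-TCL1 spleen 1, 39.1% of 192 in lymph node 1 and 15.2% of 92 in lymph node 2. In libraries whose leading gene of Cd8 cells was under that limit, it was carried by 25.5% of 55 such cells in Eµ-TCL1 spleen 4, 23.1% of 91 in Eµ-TCL1 lymph node 3 and 20.4% of 598 in Eµ-PRMT5/TCL1 lymph node 3, and by less in the others. Their part in the shares of Cd8 and Cd4 cells was not tested.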

How the results depend on the processing

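Of the recomputed values of dominance, 209 kept their direction and 13 turned their sign. Of the 12 dominance comparisons 0 had passed after adjustment and 7 were too small to reach 0.05 in their exact permutation test. None of the 6 genotype comparisons could pass after adjustment. The side of the threshold on which these comparisons fell therefore shows no stability. Of the recomputed counts of V genes 69 were within 1.5 times the reported count, 17 were above and 7 below, and of those of genes in over-represented cells 15, 10 and 7. The recomputed counts of V genes, here and above, are given without the share of all genes called in the same setting. They therefore do not set V genes against other genes. Where a cause is not named, the cause was not tested.

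With a minimum of 10 assigned cells, dominance of Cd8 minus Cd4 cells in spleens turned to 10.1 points and that of lymph node minus spleen in Cd4 cells to 3.01. Lymph node minus spleen also turned with the share of the leading gene (0.955 in Cd8 and 0.718 in Cd4 cells), with UMIs counted in place of cells (0.817 in Cd8 cells) and with thinning to 1500 UMIs (0.112 in Cd8 cells). With mice left unpaired (no replicate block), which also let in Eµ-TCL1 lymph node 2, so that 6 nodes stood against 5 spleens, it was 0.268 in Cd4 cells.

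Leaving out each library in turn gave -21.2 to 5.04 points for Eµ-PRMT5 against Eµ-TCL1 spleens in Cd8 cells (positive without Eµ-TCL1 spleen 3) and -74.3 to -73.8 in Cd4 cells. It gave -31.9 to -14.3 for Eµ-PRMT5/TCL1 against Eµ-TCL1 spleens in Cd8 cells and -74.8 to -74.1 in Cd4 cells, and -12.8 to -0.826 and -57.0 to -22.7 for lymph nodes. In Cd4 cells of spleens the single Eµ-TCL1 spleen could not be left out, because no group would remain. Both narrow ranges there therefore show no stability. Cd8 minus Cd4 cells gave -8.78 to 3.62 in spleens (positive without Eµ-TCL1 spleen 1) and -11.5 to 1.54 in nodes (positive without Eµ-TCL1 node 1). Cells with Ccl5 minus those without gave 3.73 to 6.86 in spleens and 2.70 to 4.30 in nodes. Lymph node minus spleen gave -1.92 to 1.12 in Cd8 cells (0.0551 without the mouse of Eµ-TCL1 node 1 and 1.12 without that of node 2) and -3.16 to 1.86 in Cd4 cells (1.86 without the mouse of node 1).

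The count of V genes called in Cd4 cells, 9 for Eµ-PRMT5 against Eµ-TCL1 spleens, 2 for Eµ-PRMT5/TCL1 against Eµ-TCL1 spleens and 9 in lymph nodes, was 20, 13 and 5 by DESeq2, 41, 27 and 26 without a filter on low counts, and 0, 0 and 18 with at least 100 cells per library, which leaves fewer libraries. Without the top Scrublet scores, chosen after seeing the data, the 2 became 4. Without each library in turn the 9 became 0 to 26 (0 without Eµ-PRMT5 spleen 3, 1 without Eµ-PRMT5 spleen 1, 15 and 26 without Eµ-PRMT5/TCL1 spleens 2 and 4), the 2 became 0 to 11 (6 without Eµ-PRMT5 spleen 2 or Eµ-PRMT5/TCL1 spleen 2, 0 without spleen 3, 11 without spleen 4), and the 9 in nodes became 3 to 14 (3 without Eµ-PRMT5/TCL1 node 3, 14 without Eµ-TCL1 node 2). In Cd8 cells of nodes, 1 V gene was called by DESeq2 and 0 to 1 without each library (1 without Eµ-TCL1 node 3).

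With the replicate number as a block, which pairs different mice across genotypes, 28 and 12 V genes were called in Cd4 cells of spleens. This block also drops libraries whose number has no partner. With it the Cd8 dominance differences, over 4, 4 and 3 pairs and so without Eµ-PRMT5 spleen 5 and Eµ-PRMT5/TCL1 lymph node 4, were -21.2, -24.9 and -6.17 points, and that of Cd4 cells in nodes was -40.1 over 2 pairs. Leaving out Eµ-PRMT5 spleen 5 without a block gave the same -21.2, and leaving out Eµ-PRMT5/TCL1 lymph node 4 the same -6.17. The block could not be fitted for V genes in Cd4 cells of nodes. Deviations from the group means correlated between same-numbered libraries at -0.419 to 0.524, over 0.1 in 4 of 12 pairs, and in 4 the own number was the best match. The highest values were those of Cd8 cells in lymph nodes numbered 3 and 1 (0.524 and 0.311, against -0.0842 for number 2). Whether same-numbered libraries were processed together was not tested.

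The 237 genes called in over-represented Cd8 cells of spleens became 703 without a filter on low counts, 404 with at least 20 cells per class, 0 with no library block, and 90 to 404 without each library (90 without Eµ-PRMT5/TCL1 spleen 3, 149 and 142 without spleens 2 and 4, 109 and 142 without Eµ-TCL1 spleens 1 and 3, 402 without Eµ-TCL1 spleen 4, 404 without Eµ-PRMT5 spleen 4). As alternatives chosen after seeing the data, lymph nodes gave 40 and the spleens without Eµ-PRMT5 spleens 4 and 5 gave 458. The 8 inhibitory genes became 5 to 8 without each library and 5 by DESeq2. In Cd4 cells the 0 became 53 without a filter, 20 with at least 20 cells per class, 1 with the leading gene, and 0 to 6 without each library (2 and 6 without Eµ-PRMT5/TCL1 spleens 2 and 3).

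Depth limits these data where a library holds few cells, as in Cd4 cells of Eµ-TCL1 spleens and Cd8 cells of Eµ-PRMT5 spleen 4 and Eµ-PRMT5/TCL1 lymph node 1, and where a cell holds few V gene UMIs. A 3′ library reads a V gene only where the fragment reaches it, so shares describe cells in which a Trbv UMI was captured.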
